A study of Mus musculus with 6 samples.

Results

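The 83 protein-coding genes that encode the proteins of the cytosolic ribosome were followed in mammary tumors of NeuT/ATTAC mice given a control antibody or an antibody against programmed cell death 1 (PD-1). They were chosen by gene symbol among the 54532 Ensembl gene IDs of the RNAseq tables, as Rpl or Rps followed by a number, together with Rplp0, Rplp1, Rplp2 and Rpsa. The choice left out 301 pseudogenes named after ribosomal proteins and the Rps6k kinases, and it used no measured value. Of the 83 genes, 51 belong to the large subunit and 32 to the small subunit. They lie on 19 chromosomes, with at most 14 on any of them (chromosome 7).

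The series holds 3 libraries of tumors from mice treated with isotype IgG and 3 of tumors from mice treated with anti-PD-1 mAb. All 6 tumors arose in NeuT/ATTAC mice, which combine MMTV-NeuT, a mammary tumor virus promoter driving Erbb2 in the mammary gland on the FVB background, with the FAT-ATTAC transgene, brought from C57BL/6 into FVB, through which AP20187 ablates adipose tissue. Every mouse, control mice included, received AP20187 at 0.4 mg/kg from 6 weeks of age to induce mammary fibrosis (biweekly in the sample labels, triweekly in the methods of the study) and 100 μg of antibody i.p. 2 times per week from 8 weeks of age. By the methods of the study the antibody was given for 4 months, and the age of each mouse at collection is not given in the sources used here. In a figure legend the study mentions pooling of the tumor RNA by group. The sample titles number the replicates of each group and do not say whether a replicate is a single mouse or a pool. Each sample is called a tumor here, and p-values measure the spread between these 6 samples. Values are fragment counts scaled by exon length and library size (FPKM), and the reads behind them could be recovered as 21075641 to 23852764 per tumor. In bulk tumor RNA, fewer cells of a type and less RNA per cell cannot be told apart.

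Ribosomal proteins are made in near-equal numbers, because each ribosome holds a single copy of most of them, and their mRNAs are among the most abundant of a growing cell. These mRNAs start with a cytosine followed by a run of pyrimidines, the 5′ terminal oligopyrimidine (TOP) motif, through which mTOR signaling and the RNA-binding protein Larp1 control how much of them is translated. RNAseq measures the mRNA and not its translation. In mammary tumors driven by Erbb2, growth signaling through PI3K and mTOR acts on this class of mRNAs, which is why they are read as a sign of the capacity to make protein.

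Runs of pyrimidines were searched for near the annotated start sites, and such a run need not be the TOP motif itself. A promoter sequence was in the RefSeq table (assembly GRCm38.p6) for 63 of the 83 genes, including 7 of the 9 that differed at an unadjusted p under 0.05 as described further on. A run of at least 8 C or T on the sense strand within 50 bases of the annotated start was found in 52 of the 63 (82.5%), against 36.8% of the promoters of the other tested genes and 35.7% of all 32851 promoters. On the opposite strand the share was 23.8% in the ribosomal protein genes, 40.2% in the other tested genes and 38.1% in all promoters. The sequences shown are 30 bases, 5′ to 3′ on the gene's own strand, with the longest pyrimidine run of the window in capitals. They are those of the genes that differed, of 2 other genes on chromosomes 4 and 9, and of 2 genes from elsewhere with long runs, Rpl28 and Rpl35, which did not pass the test.
Rpl22 (chr4:152325679-152325708, + strand): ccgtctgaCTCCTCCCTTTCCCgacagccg
Rpl11 (chr4:136053357-136053386, - strand): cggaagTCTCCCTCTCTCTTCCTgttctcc
Rps6 (chr4:86857349-86857378, - strand): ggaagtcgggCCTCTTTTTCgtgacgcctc
Rps25 (chr9:44407684-44407713, + strand): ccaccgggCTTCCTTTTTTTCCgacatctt
Rpl4 (chr9:64173406-64173435, + strand): agcgtggCCTTCTCCTCTCCCCgtcatggt
Rpsa (chr9:120127705-120127734, + strand): cggaagttctcCCTTTTTgcttagcctgct
Rpl14 (chr9:120571501-120571530, + strand): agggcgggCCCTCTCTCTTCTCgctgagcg
Rps27 (chr3:90213631-90213660, - strand): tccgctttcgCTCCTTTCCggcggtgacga
Rpl27 (chr11:101442194-101442223, + strand): tcatcctcgCTCCTCCCTCCacacgccgga
Rpl35 (chr2:39005115-39005144, - strand): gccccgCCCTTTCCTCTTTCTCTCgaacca
Rpl28 (chr7:4792953-4792982, + strand): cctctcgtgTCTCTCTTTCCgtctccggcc

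The runs in the sequences shown are 9 bases long in Rps27, 10 in Rps6, 14 in Rpl22, Rps25 and Rpl14, 17 in Rpl11 and 18 in Rpl35. In Rpsa the capitals mark 7 bases, because the run reaches the edge of the searched window and goes on beyond it in lower case. Many runs lie away from the annotated start. They begin 22 bases upstream in Rps25, 39 in Rpl22, 42 in Rpl27 and 50 in Rpsa, and at base 14 from the start in Rpl11 and base 27 in Rpl4. The runs shown for Rpl11 and Rpl28 begin with T and not with the C of the TOP motif. Where transcription starts in these tumors is not part of the data. Other letters searched for in the 300-base promoters, on both strands, were CGGAAG, an ETS-type site, in 66.7% of the ribosomal protein promoters (34.2% of other tested genes and 16.9% of all promoters), ATGGCG, which overlaps the core of a YY1 site, in 33.3% (17.0% and 8.93%), and CACGTG, the E-box bound by Myc, in 9.52% (11.5% and 7.15%). Such matches are descriptions of the sequence.

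Transcripts of 80 of the 83 genes were abundant enough to be tested, and most stood at a high level. The mean FPKM of the 80 genes ran from 1.11 to 1802 with a median of 298, and the upper quartile was 2.81 times the lower. Because FPKM divides by the merged length of all annotated exons, genes with long rare exons are set low, and on the length of the main transcript the same reads gave a quartile ratio of 2.29. By FPKM the highest mean levels belonged to Rplp1, an acidic protein of the stalk that recruits elongation factors (1802 FPKM), to Rpl17 near the exit of the peptide tunnel (1323), and to Rps3a1 of the small subunit (1308). Rpl17 was at 1496, 1307 and 1158 FPKM in the IgG tumors and 1362, 1343 and 1272 in the anti-PD-1 tumors, and Rps3a1 at 1615, 1629 and 943 against 1159, 1345 and 1157, with overlapping groups in both. On the length of the main transcript the order was Rps14 (2922), Rpl17 (2265), Rpl10 (1862) and Rplp1 (1802), with Rps3a1 in place 11. At the other end, Rpl24 was read at 0.716 to 1.37 FPKM and Rps10 at 2.99 to 5.58, far below the other subunits they assemble with. Exons of Rpl24 overlap those of Gm28037, and exons of Rps10 overlap those of the read-through gene RPS10-NUDT3. Both overlapping genes were listed at 0 in all tumors. Reads that overlapping annotations share can be left uncounted or moved, so these low levels are uncertain.

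Ribosomal protein genes have many processed copies, and this bears on every value given here. A pseudogene with at least 95% identity over at least 80% of the coding sequence was found for 76 of the 83 genes, 566 matches in all, with up to 56 for Rpl21. RSEM, which the methods name, estimates counts that need not be whole when reads are shared, whereas the reads recovered from FPKM were whole for 79 of the 83 genes. How the counting behind the FPKM divided reads between such copies is therefore not known. The number of copies was nearly unrelated to log2 FPKM (r = 0.05 across 80 genes, which are not independent). Exons of 24 of the genes overlap those of another gene, and 58 annotated small nucleolar RNA genes lie within the bounds of 30 of them, on the same strand. Rpl10l was listed at 0 in all tumors. Rpl39l (0 to 12 reads per tumor) and Rpl3l, the muscle paralog of Rpl3 (2 to 42 reads), had a mean FPKM under 0.5 and were not tested. Rpl3l was highest in IgG replicate 2, at 1.07 FPKM, where the summed skeletal muscle markers stood at 139 FPKM, but it was at 0.402 in anti-PD-1 replicate 2, where they stood at 150.

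None of the 80 ribosomal protein genes differed between IgG- and anti-PD-1-treated tumors after adjustment over the 15069 tested genes (limma, Benjamini-Hochberg), and neither did any other gene (0.0% of all tested). With voom on the recovered reads, 1 of 15064 genes passed (0.00664%), and no member. At an unadjusted p under 0.05, 8 ribosomal protein genes were lower in the anti-PD-1 tumors (10.0%) and 1 was higher, where all tested genes gave 6.05% lower and 6.22% higher. The 8 lower genes were Rpl22, Rps25, Rps27, Rpl11, Rplp1, Rps20, Rpl4 and Rpsa, and the higher gene was Rpl27. Log2 fold changes (anti-PD-1 minus IgG, of scaled FPKM plus 1) were negative for 51 genes and positive for 29, with a median of -0.15 against 0.01 for all tested genes. This median was 0.018 without IgG replicate 1 and -0.29 without IgG replicate 3. The groups did not overlap for 12 of the 80 genes, lower (8.99% of all tested genes), and for 7 that were higher (8.75%, with 9.1% of all tested genes). The number of lower genes moved with the tumors in the fit. It was 4 without IgG replicate 2, 13 without IgG replicate 3, 3 without anti-PD-1 replicate 2 and 3 without anti-PD-1 replicate 3. The number of higher genes was 2 without IgG replicate 1 and 0 without IgG replicate 2, anti-PD-1 replicate 1 or anti-PD-1 replicate 2.

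Of the 8 lower genes, 7 lie on chromosomes 4 and 9. Those chromosomes were already known from an earlier look at these data to hold many genes with lower values in the anti-PD-1 tumors, so the division of the ribosomal protein genes by chromosome is a description. All 12 tested members on chromosomes 4 and 9 had a negative fold change, with a median of -0.55, and in 9 of them the groups did not overlap, as in 30.3% of the other tested genes of chromosome 4 and 21.2% of those of chromosome 9, also lower. The other 68 tested members had a median of -0.06, with 1 gene lower (Rps27) and 1 higher. With a tumor left out, the median of the 68 was lowest without IgG replicate 3 (-0.21) and highest without IgG replicate 1 (0.054), and that of the 12 ran from -0.66 to -0.42. Among the other tested genes of chromosome 4, 266 of 921 (28.9%) were lower at an unadjusted p under 0.05 with a median of -0.40, and of chromosome 9, 164 of 791 (20.7%) with a median of -0.36.

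**Figure D1:**
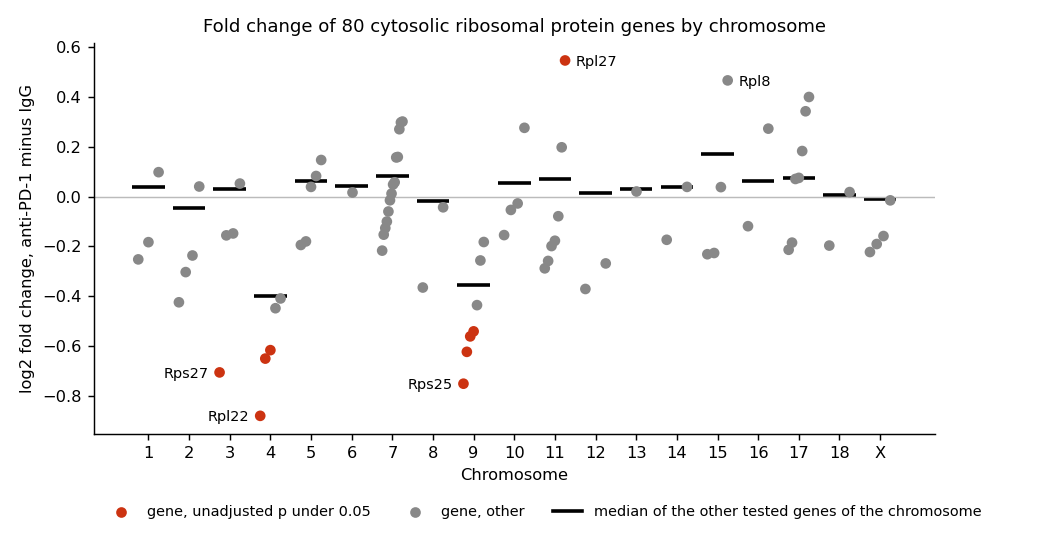
Log2 fold change, anti-PD-1 minus IgG, of the 80 tested cytosolic ribosomal protein genes by chromosome; each point is a gene (red at an unadjusted p under 0.05) and each bar is the median of the other tested genes of the chromosome. On chromosomes 4 and 9 the bars stand at -0.40 and -0.36 and all 12 points lie below 0, while the points on the other chromosomes have a median of -0.06.

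On chromosome 4, Rpl22 (ENSMUSG00000028936, chr4:152325742-152334071), a large subunit protein needed for the development of αβ T cells, had the smallest p of all members. Its level was 122, 161 and 102 FPKM in the IgG tumors and 72.6, 65.2 and 65.4 in the anti-PD-1 tumors. Every IgG tumor was above every anti-PD-1 tumor, and the log2 fold change was -0.88 ± 0.20 (SE, n = 3 per group, limma adjusted p = 0.344). Rpl11 (chr4:136028265-136053428), which with Rpl5 and the 5S RNA binds Mdm2 when ribosome assembly fails, was read at 172, 233 and 173 FPKM against 127, 123 and 113. The groups did not overlap, with a log2 fold change of -0.65 ± 0.19 (limma adjusted p = 0.344). Rps20 (chr4:3831334-3835665), a protein of the head of the small subunit, stood at 106, 148 and 102 FPKM against 78.6, 75.6 and 72.7, with a log2 fold change of -0.62 ± 0.19 (limma adjusted p = 0.352). In all 3 genes IgG replicate 2 was the highest tumor, and the anti-PD-1 tumors lay close together.

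No other member on chromosome 4 passed the test. Rps6, the small subunit protein phosphorylated by S6 kinase downstream of mTOR, was at 292, 428 and 382 FPKM in the IgG tumors and 292, 264 and 260 in the anti-PD-1 tumors, so that the groups met at their edges (log2 fold change -0.41 ± 0.21, limma adjusted p = 0.454). IgG replicate 1 lay next to the anti-PD-1 tumors, and the other IgG tumors stood above them.

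On chromosome 9, Rps25 (ENSMUSG00000009927, chr9:44407139-44410427), a small subunit protein that several viral internal ribosome entry sites depend on, was at 174, 264 and 182 FPKM in the IgG tumors and 147, 108 and 107 in the anti-PD-1 tumors. Its groups did not overlap, and the log2 fold change was -0.75 ± 0.23 (limma adjusted p = 0.354). Rps25 was the only called gene whose exons overlap another gene's (Ccdc84 and Trappc4). Rplp1 (chr9:61913284-61914542), of the stalk, was at 2106, 2600 and 1868 FPKM against 1668, 1272 and 1301, a log2 fold change of -0.62 ± 0.27 (limma adjusted p = 0.407). Rpl4 (chr9:64173375-64178666), which lines part of the peptide tunnel, was at 507, 746 and 631 FPKM against 488, 378 and 397, a log2 fold change of -0.56 ± 0.23 (limma adjusted p = 0.397). Rpsa (chr9:120127689-120132369), also known as the laminin receptor, was at 357, 503 and 404 FPKM against 339, 289 and 237, a log2 fold change of -0.54 ± 0.23 (limma adjusted p = 0.405). In each of these 4 genes anti-PD-1 replicate 1 was the anti-PD-1 tumor nearest to the IgG group.

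Rpl29 was at 81.7, 107 and 99.7 FPKM against 83.9, 64.1 and 63.8 (log2 fold change -0.44 ± 0.19, limma adjusted p = 0.414), with IgG replicate 1 just below anti-PD-1 replicate 1. Rpl14 was at 226, 312 and 367 FPKM against 300, 245 and 204, and Rps27l, a paralog of Rps27, at 214, 184 and 174 against 172, 155 and 174. Their log2 fold changes were -0.26 ± 0.25 and -0.18 ± 0.17, and neither passed the test.

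**Figure D2:**
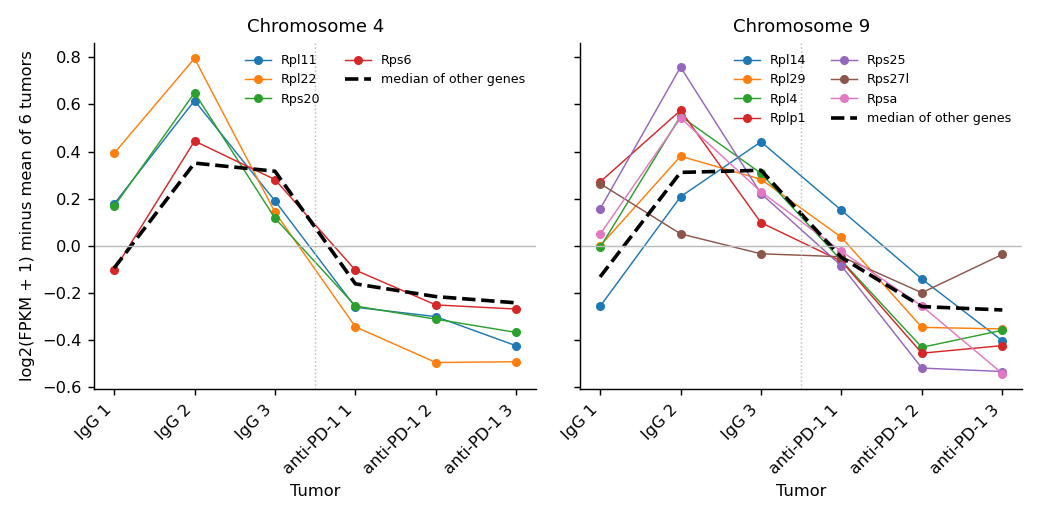
Level of ribosomal protein genes of chromosome 4 (left, 4 genes) and chromosome 9 (right, 7 genes) in every tumor, as log2(FPKM + 1) minus the gene's mean over the 6 tumors; the dashed line is the median of the other tested genes of the chromosome. The dashed line of chromosome 4 stands at 0.35 in IgG replicate 2 and at -0.24 in anti-PD-1 replicate 3, and most member lines lie above 0 in IgG replicates 2 and 3 and below 0 in the anti-PD-1 tumors.

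The ribosomal protein genes on a chromosome went with the rest of that chromosome in single tumors as well. For each chromosome and tumor, the median deviation of its ribosomal protein genes, after taking out the median of all members in that tumor, was set beside the median deviation of the chromosome's other tested genes. Over the 114 combinations of 19 chromosomes and 6 tumors, Pearson's r was 0.80, a description only, since the points share libraries and a scaling and some chromosomes hold 1 member. In 13 combinations the other genes stood at least 0.15 (log2) from 0, and the ribosomal protein genes were on the same side in 13 of 13. Besides chromosomes 4 and 9, these took in chromosome 15 in anti-PD-1 replicate 3, where the other genes had a median deviation of 0.33 and the 4 members one of 0.37, and chromosome 8 in anti-PD-1 replicate 2, where the values were -0.29 and -0.40 (members given here before the tumor's median was taken out). In chromosome 2 in IgG replicate 3 the values were 0.19 and 0.11, and in chromosome 15 in IgG replicate 2 they were -0.18 and -0.08. What these chromosomes have in common was not tested.

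Centring each chromosome on its other tested genes, an alternative added after seeing the data, took most of the difference from the 12 members. Their median log2 fold change became -0.19. That of the 68 members on the other chromosomes went from -0.06 to -0.14, and that of all 80 was -0.15 before and after. In all, 3 members were lower at an unadjusted p under 0.05, where 4.8% of all tested genes were lower and 6.16% higher. They were Rpl22 (log2 fold change -0.48), Rps27 (-0.72) and Rpl3 (-0.40), the last of which was not among the 8 before. Rps25 was at -0.39, Rpl11 at -0.25, Rplp1 at -0.26, Rps20 at -0.22, Rpl4 at -0.20 and Rpsa at -0.18, and none of these passed. Rpl27 stayed higher (0.47).

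Rps27 and Rpl27 were the called genes away from chromosomes 4 and 9. Rps27 (ENSMUSG00000090733, chr3:90212522-90213651), a zinc finger protein of the small subunit, was at 538, 418 and 326 FPKM in the IgG tumors and 307, 221 and 245 in the anti-PD-1 tumors. The groups did not overlap, though IgG replicate 3 came close to anti-PD-1 replicate 1, and the log2 fold change was -0.71 ± 0.25 (limma adjusted p = 0.369). The other tested genes of chromosome 3 had a median of 0.03. Rpl27 (ENSMUSG00000063316, chr11:101442298-101445529), of the large subunit, was at 247, 189 and 192 FPKM against 337, 308 and 267. All anti-PD-1 tumors were above all IgG tumors, with a log2 fold change of 0.55 ± 0.20 (limma adjusted p = 0.37). The other tested genes of chromosome 11 had a median of 0.07.

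The next genes in the higher direction did not pass the test. Rpl8, of the large subunit's core, was at 543, 430 and 597 FPKM against 685, 628 and 848.95, a log2 fold change of 0.47 with a 95% interval of -0.07 to 1.01. Its groups did not overlap, and its highest tumor, anti-PD-1 replicate 3, was the one in which the genes of its own chromosome 15 stood higher. Rps2, a small subunit protein at the mRNA entry channel, was at 195, 140 and 174 FPKM against 215, 226 and 198 (log2 fold change 0.34 ± 0.19, limma adjusted p = 0.486). Rps13 was at 121, 96.3 and 115 FPKM against 136, 145 and 120 (0.27 ± 0.17, limma adjusted p = 0.546). Rps10 was at 4.42, 2.99 and 3.74 FPKM against 4.72, 5.58 and 5.23 (0.40 ± 0.18, limma adjusted p = 0.414), under the doubt about its overlapping exons.

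The acidic stalk showed unequal values for its parts. Rplp0, the base on which the stalk dimers sit, was at 1041, 1046 and 1083 FPKM in the IgG tumors and 1225, 1122 and 1152 in the anti-PD-1 tumors. Its groups did not overlap, yet the log2 fold change of 0.15 ± 0.21 did not pass (limma adjusted p = 0.8). Rplp2, the partner of Rplp1, was at 167, 122 and 151 FPKM against 218, 158 and 123, with overlapping groups and a log2 fold change of 0.16 ± 0.25. Rplp1 alone of the 3 lies on chromosome 9, and the difference between Rplp1 and Rplp2 was not tested.

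Of the other genes chosen for their known roles, Rpl5, Rps19, Rps14 and Rps3 did not pass the test. Rpl5, the partner of Rpl11 in binding Mdm2, was at 307, 265 and 177 FPKM against 226, 212 and 199 (log2 fold change -0.19 ± 0.24). Rps19, the gene most often affected in Diamond-Blackfan anemia, was at 115, 102 and 91.9 FPKM against 97.3, 106 and 106, with a log2 fold change of 0.01 and a 95% interval of -0.36 to 0.39. Rps14, lost in the 5q- syndrome, was at 971, 834 and 560 FPKM against 708, 685 and 614 (-0.20 ± 0.26). Rps3, which also has roles in DNA repair, was at 389, 278 and 204 FPKM against 288, 250 and 245 (-0.10 ± 0.26). For Rpl5, Rps14 and Rps3 the IgG tumors held both the highest and the lowest value of all 6.

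The order of the tumors was counted over the family. Of the 68 tested members off chromosomes 4 and 9, 61 were higher in IgG replicate 1 than in IgG replicate 3. IgG replicate 1 was the highest of the 6 tumors for 40 of them (58.8%, with 9.81% of all tested genes), and IgG replicate 3 was the lowest for 39 (57.4%, with 20.5% of all tested genes). The median deviation of these 68 genes from their own mean was 0.25 (log2) in IgG replicate 1, 0.02 in IgG replicate 2, -0.19 in IgG replicate 3, and between -0.04 and 0.00 in the anti-PD-1 tumors. The highest and the lowest of these medians were both in the IgG group. The deviation of IgG replicate 1 went with short coding sequences (r = -0.47 across 80 genes, which are not independent). For the other tumors this r ran from -0.13 to 0.33.

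Large amounts of RNA came from this family in every tumor. The 83 genes made up 9.99, 9.35 and 9.05% of the summed FPKM in the IgG tumors and 8.85, 8.35 and 7.99% in the anti-PD-1 tumors. The means were 9.46% ± 0.48 and 8.40% ± 0.43 (SD, n = 3 each), and the groups did not overlap. Without the 12 members on chromosomes 4 and 9 the shares were 8.68, 7.60 and 7.42% against 7.66, 7.38 and 7.08%, which overlap, and the difference was -0.53 percentage points instead of -1.06. As a share of recovered reads, which does not favor short genes, the genes took 5.72, 5.14 and 4.63% in the IgG tumors and 4.88, 4.70 and 4.48% in the anti-PD-1 tumors. Those groups overlap, and their means of 5.16 and 4.69% differ by -0.47 points on this smaller base. Mitochondrially encoded protein genes, which also enter the total, took 7.59, 9.08 and 5.20% of FPKM in the IgG tumors and 4.54, 6.56 and 5.58% in the anti-PD-1 tumors, and leaving them out of the total changed the difference to -1.32 points.

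**Figure D3:**
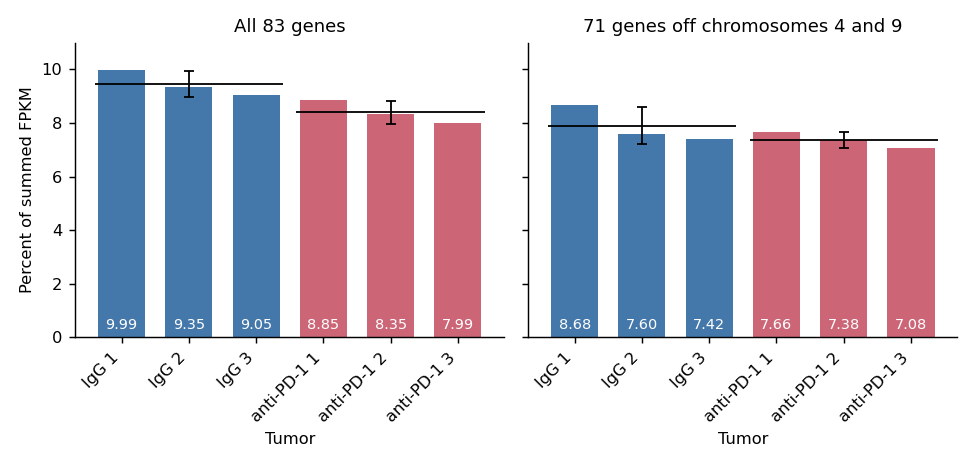
Summed FPKM of the cytosolic ribosomal protein genes as a percent of all FPKM in each tumor, for all 83 genes (left) and for the 71 genes off chromosomes 4 and 9 (right); lines are group means and error bars are SD (n = 3). On the left the IgG tumors (9.05 to 9.99%) lie above the anti-PD-1 tumors (7.99 to 8.85%), and on the right the ranges overlap.

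The balance of the subunits was compared within each tumor. The log2 ratio of summed FPKM of small to large subunit genes was -0.62, -0.62 and -0.70 in the IgG tumors and -0.71, -0.61 and -0.75 in the anti-PD-1 tumors, with overlapping groups. Without the 5 highest members it was -0.56, -0.50 and -0.58 against -0.66, -0.61 and -0.73, which do not overlap, and the difference was -0.12 instead of -0.04. With all members, the difference ran from -0.080 without anti-PD-1 replicate 2 to -0.014 without anti-PD-1 replicate 3. On recovered reads in place of FPKM the ratio was -0.49, -0.48 and -0.61 against -0.60, -0.55 and -0.68. Those groups overlap, and the difference was -0.089. Among the 48 tested large subunit genes 4 were lower and 1 was higher, with a median log2 fold change of -0.07, and among the 32 small subunit genes 4 were lower and none was higher, with a median of -0.16. These are 8.33% and 12.5% lower, beside 6.05% of all tested genes. The count of 0 is at an unadjusted limma p under 0.05, and no gene of either subunit passed after adjustment.

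Several subunits have a divergent paralog that can take the parent's place in some tissues, and 7 such ratios were examined within each tumor, where scaling between tumors does not enter. Rpl22l1 was at 54.5, 33.6 and 23.5 FPKM in the IgG tumors and 46.5, 33.6 and 30.6 in the anti-PD-1 tumors, so its own groups overlapped (log2 fold change 0.05 ± 0.32). The log2 ratio of Rpl22l1 to Rpl22 was -1.15, -2.26 and -2.11 in the IgG tumors and -0.64, -0.96 and -1.09 in the anti-PD-1 tumors. It was higher in every anti-PD-1 tumor, by 0.95 (two-sided exact permutation p = 0.1, the smallest that 3 against 3 can give). The lead over IgG replicate 1 was slight, since -1.15 and -1.09 lie next to each other. The log2 ratio of Rps27l to Rps27 was -1.33, -1.18 and -0.91 against -0.83, -0.51 and -0.49, higher by 0.53 without overlap (exact permutation p = 0.1). In both pairs the parent, not the paralog, was the gene at an unadjusted p under 0.05.

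**Figure D4:**
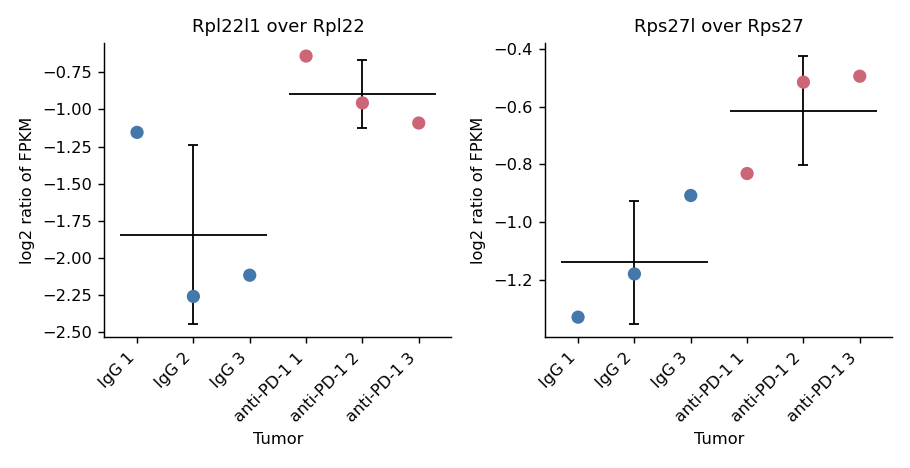
Log2 ratio of FPKM (0.1 added to each gene) of Rpl22l1 to Rpl22 (left) and of Rps27l to Rps27 (right) in each tumor; points are tumors, lines are group means and error bars are SD (n = 3). In both panels the 3 anti-PD-1 tumors lie above the 3 IgG tumors, with means of -0.90 against -1.84 and of -0.61 against -1.14.

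The other paralogs gave overlapping groups. Rpl7l1, which acts in ribosome assembly, was at 28.7, 30.1 and 29.7 FPKM against 31.6, 32.4 and 28.8, while Rpl7 was at 766, 662 and 462 against 491, 563 and 574. Their log2 ratio differed by 0.26 (exact permutation p = 0.4), and by 0.080 without IgG replicate 1 to 0.47 without IgG replicate 3. The ratios of Rpl3l to Rpl3 (exact permutation p = 0.8), Rpl39l to Rpl39 (p = 0.3, exact permutation) and Rps4l to Rps4x (p = 0.9, exact permutation) rest on few reads of the paralog. Rps4l, annotated as a transcribed processed pseudogene and therefore not a member, had 406 reads in anti-PD-1 replicate 1 and 0 to 24 in each other tumor. The parents were read at 246, 267 and 228 FPKM against 203, 199 and 229 for Rpl3, at 256, 163 and 131 against 181, 118 and 159 for Rpl39, at 1071, 1070 and 787 against 765, 939 and 892 for Rps4x, and at 818, 807 and 576 against 675, 717 and 755 for Rpl10. None of these 4 passed the test. Of the 7 planned ratios 6 could be tested, and after adjustment none can pass at this group size.

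The remaining 46 members were all tested, with mean levels from 21.6 to 968 FPKM and log2 fold changes from -0.43 to 0.30. Of these, 29 were negative and 17 positive, and the groups overlapped in 43. The exceptions were Rps21 and Rpl35, lower, and Rps9, higher, with limma adjusted p-values of 0.455, 0.563 and 0.73. The 29 large subunit genes among them had a median log2 fold change of -0.06 and the 17 small subunit genes one of -0.15.

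Ribosomal protein genes outside the naming rule had positive values. Rack1, the scaffold on the head of the small subunit, was at 252, 206 and 187 FPKM against 242, 224 and 218. Fau, which encodes Rps30 fused to a ubiquitin-like protein, was at 746, 587 and 444 FPKM against 673, 815 and 623. Rpl36al, a retrocopy of Rpl36a, was at 1.85, 0.431 and 0.696 FPKM against 1.88, 3.63 and 2.36 and was the gene of this list that was higher at an unadjusted p under 0.05 (log2 fold change 0.90 ± 0.31, limma adjusted p = 0.365).

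Mitochondrial ribosomal proteins are encoded by separate nuclear genes and build the ribosome that translates the mitochondrial genome. Of 76 tested genes of this family, 22 (28.9%) were higher and 3 (3.95%) were lower in the anti-PD-1 tumors at an unadjusted p under 0.05. All tested genes gave 6.22% higher and 6.05% lower, and no gene of the family passed after adjustment. The median log2 fold change was 0.25, with 61 positive and 15 negative. Their summed FPKM was 1126 to 1344 in the IgG tumors and 1459 to 1604 in the anti-PD-1 tumors. Mrpl57 was at 8.38, 7.30 and 7.57 FPKM against 13.4, 12.2 and 13.6 (log2 fold change 0.69 ± 0.14, adjusted p = 0.344 with limma). Mrpl50, on chromosome 4, was at 14.0, 21.5 and 17.2 FPKM against 9.63, 9.48 and 8.72 (-0.83 ± 0.19, adjusted p = 0.344 with limma). Off chromosomes 4 and 9, 22 of 69 (31.9%) were higher and 1 (1.45%), Mrps31, was lower. The count of 22 fell to 9 without IgG replicate 2 and to 10 without anti-PD-1 replicate 2. The difference between the cytosolic and the mitochondrial family was not tested.

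**Figure D5:**
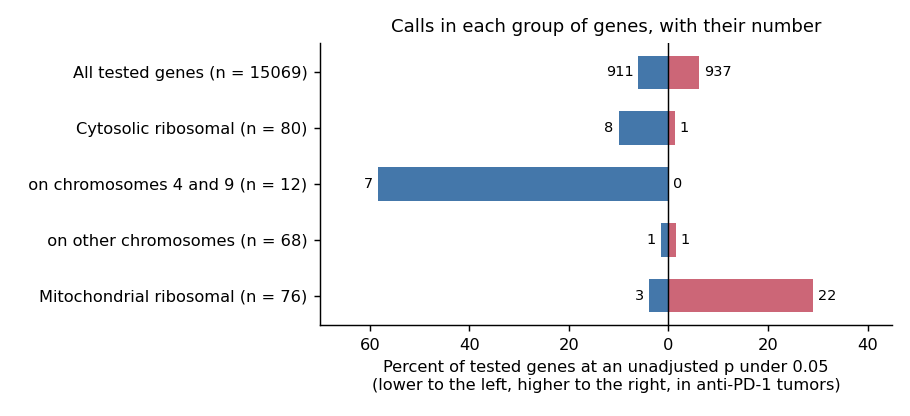
Percent of tested genes at an unadjusted limma p under 0.05, lower (blue, left) and higher (red, right) in the anti-PD-1 tumors, for all tested genes and groups of ribosomal protein genes; numbers beside the bars are genes. The 7 lower genes among the 12 on chromosomes 4 and 9 stand against 1 lower gene among the other 68, and 22 of the 76 mitochondrial ribosomal protein genes are higher.

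Genes that act with the ribosomal proteins were counted in the same way, beside 6.22% of all tested genes higher and 6.05% lower. Of 16 elongation factors and other TOP mRNAs, 1 (6.25%) was higher, Hnrnpa1, at 134, 120 and 140 FPKM against 157, 195 and 174 (log2 fold change 0.42 ± 0.17, limma adjusted p = 0.396), with a median over the list of 0.07. Eef1a1, the most abundant elongation factor mRNA and a gene of chromosome 9, was at 1815, 3010 and 2770 FPKM against 2049, 1770 and 1946 (-0.36 ± 0.29). All 6 host genes of small nucleolar RNAs of the TOP class had negative values, with a median of -0.30. Leaving out IgG replicate 3 gave a median of -0.48, and leaving out anti-PD-1 replicate 3 gave -0.21. None passed the test, and Gas5 was nearest, at 53.7, 60.5 and 32.1 FPKM against 25.7, 36.7 and 34.9 (limma adjusted p = 0.452). Of 15 genes of the RNA polymerase I machinery, which makes ribosomal RNA, Polr2f was higher (6.67% of the list, 0.59 ± 0.17) and Taf1b lower (-0.53 ± 0.16). Of 40 ribosome assembly factors 4 (10.0%) were higher and 1 lower, with the 2'-O-methyltransferase Fbl at 15.1, 10.5 and 13.4 FPKM against 21.2, 18.1 and 19.3 (0.57 ± 0.17) and Gnl2, on chromosome 4, lower (-0.46 ± 0.19).

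Of 19 regulators of ribosomal protein output, 2 (10.5%) were higher and none lower at an unadjusted limma p under 0.05. Mycn, a Myc family transcription factor, was at 0.993, 0.240 and 0.0995 FPKM against 2.77, 1.70 and 3.30, a low level throughout (1.34 ± 0.30, limma adjusted p = 0.344). Trp53 was at 22.0, 13.0 and 16.4 FPKM against 24.2, 28.6 and 24.2 (0.58 ± 0.21). Myc was at 22.6, 22.6 and 25.5 FPKM against 22.0, 20.3 and 31.3, Larp1 at 24.7, 20.8 and 25.3 against 27.9, 26.9 and 21.7, and Mtor, on chromosome 4, at 3.35, 4.56 and 6.23 against 3.17, 2.72 and 3.25, none of which passed the test.

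The tumors expressed epithelial genes at a high level. Epcam was at 690 to 885 FPKM in the IgG tumors and 988 to 1150 in the anti-PD-1 tumors, and Erbb2 at 20.3 to 23.2 and 25.2 to 31.4, but neither passed the test. Cdh1 was at 80.7 to 125 FPKM in the IgG tumors and 62.4 to 93.9 in the anti-PD-1 tumors and did not pass either. Over the 8 epithelial markers the sum, most of it from Epcam, Krt8 and Krt18, was 2227 to 3055 FPKM in the IgG tumors and 3118 to 4040 in the anti-PD-1 tumors. At an unadjusted limma p under 0.05, 1 of the 8 was lower, Krt19. It was at 7.84, 77.9 and 7.46 FPKM in the IgG tumors and 4.09, 5.27 and 1.70 in the anti-PD-1 tumors. The 6 adipocyte markers summed to 4.15 to 5.98 FPKM in the IgG tumors and 1.78 to 6.96 in the anti-PD-1 tumors, most of it from Fabp4 (1.35 to 5.64 FPKM, log2 fold change -0.32 ± 0.38), while Adipoq reached 1.19, Plin1 0.27 and Lep 0.03. All 8 lymphocyte markers had a mean under 0.5. Sums of the 9 skeletal muscle markers ran from 1.61 to 139 FPKM in the IgG tumors and from 0.676 to 150 in the anti-PD-1 tumors. Those of the 6 macrophage markers ran from 244 to 586 and 390 to 538. All 6 had positive log2 fold changes, from 0.01 (Adgre1) to 0.76 (Cd68), and Cd68 alone was at an unadjusted limma p under 0.05. For the 7 fibroblast markers the sums ran from 80.9 to 240 and 92.6 to 344. They ran from 12.5 to 18.1 and 7.87 to 15.2 for the 4 endothelial markers, and from 85.8 to 279 and 41.5 to 835 for the 5 erythroid markers. Of 7 proliferation markers 1, Mcm2, was higher, with sums of 130 to 177 and 130 to 200 FPKM. Of these 7, 6 had positive log2 fold changes and 1, Mki67, a negative one (-0.25). Among all tested genes 6.22% were higher and 6.05% lower at the same threshold. The part of these marker levels in the values of the ribosomal protein genes was not tested.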

How the data were processed

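Mammary tumors of NeuT/ATTAC mice (3 IgG, 3 anti-PD-1) were grouped by the sample labels. Per the methods of the study, reads were checked with FastQC (v0.11.9), trimmed with Cutadapt (v3.5), and aligned and counted with RSEM (v1.3.1) on an Ensembl mm10 release 99 reference indexed with Bowtie2 (v2.4.1). The authors' DESeq2 (v1.36.0) results were not used here. The authors deposited FPKM per Ensembl gene ID and tumor, and how FPKM was made is not given in the sources used here.

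Gene IDs were matched to GENCODE M21 (Ensembl release 96, GRCm38; 54495 of 54532). FPKM times merged exon length gave whole reads (within 0.1) for 97.0% to 97.3% of values per tumor and for 79 of 83 members. Those reads set the precision at each level, and they were used for depth, shares, read numbers, levels on main transcript length and voom, not for the limma test on FPKM. FPKM was divided by median-of-ratios factors (1.00 to 1.01), 1 was added, and log2 values were compared by limma 3.58.1 (R 4.3.3; eBayes with trend, two-sided, Benjamini-Hochberg) for 15069 genes whose mean FPKM reached 0.5. The study's count test gave way to this test because the files hold FPKM. Ratios were tested by exact permutation. Start sites came from RefSeq, GRCm38.p6. Pseudogenes were matched with blastn 2.17.0. The fit was tested on simulated data.

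Named genes were the stalk genes with Rpsa, paralogs with their parents, Rpl5, Rpl11, Rps6, Rps19, Rps3 and Rps14, the 5 higher and 5 lower members with the smallest p, the 3 with the highest and the 3 with the lowest levels, the members on chromosomes 4 and 9, and in each other list the gene with the smallest p in each direction. Some values are not reported here. Other genes named were picked after their values were seen. The members, lists and rules were chosen with earlier results of these data known. Alternatives were another pseudocount, 2 other filters, FPKM as deposited, quantile normalization, no trend, a replicate block, voom, each tumor left out in turn and, added after seeing the data, chromosomes centred on their other genes and the members of chromosomes 4 and 9 left out.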

Additional observations from a re-analysis of the deposited data

How the results depend on the processing

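No member passed an adjusted p under 0.05 under any setting tried. The count of lower members at an unadjusted p was 3 with chromosomes centred, 5 with the replicate block and 1 without the members of chromosomes 4 and 9, and ran from 3 to 13 over fits that left out a tumor. The count of higher members was 2 under quantile normalization and 0 to 2 with a tumor left out. The member median was -0.29 to 0.018 with a tumor left out (0.018 without IgG replicate 1). With chromosomes centred, the median of the members on chromosomes 4 and 9 was -0.19 and that of the other 68 was -0.14. The replicate numbers did not pair the tumors (r of -0.16, 0.0051 and 0.19 for equal numbers), and under the block 1 member was still higher.

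For other lists, the median of the genes outside the naming rule was 0.28 at a mean FPKM of at least 2, that of TOP genes 0.0046 under quantile normalization, and that of regulators -0.030 with chromosomes centred. With a tumor left out, medians ran from -0.17 to 0.21 (divergent paralogs), 0.047 to 0.16 (TOP genes), -0.044 to 0.076 (RNA polymerase I) and 0.027 to 0.12 (assembly factors), and 9 to 22 mitochondrial ribosomal protein genes were higher. The difference in share was -0.47 points on recovered reads and -0.53 without chromosomes 4 and 9. The small to large ratio differed by -0.12 without the 5 highest members and by -0.089 on recovered reads, and Rpl39l to Rpl39 by -1.93 with a pseudocount of 0.01.

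Signs turned for members near 0 or on shifted chromosomes. With chromosomes centred, Rpl14 was at 0.10, Rps27l at 0.18, Rps19 at -0.069, Rpl17 at -0.0036 and Rpl7l1 at -0.00094. Under quantile normalization, Rpl22l1 was at -0.031, Rpl7l1 at -0.016, Rps19 at -0.13 and Rps3a1 at 0.041. With a tumor left out, Rpl10 ran from -0.18 to 0.073, Rpl17 from -0.073 to 0.11, Rpl22l1 from -0.23 to 0.36, Rpl39 from -0.44 to 0.045, Rplp2 from -0.056 to 0.36, Rps19 from -0.067 to 0.094 and Rps3 from -0.33 to 0.14. The 9 called members kept their sign in every such fit. The cause of these changes was not tested. Among the values of named members under alternatives, 437 kept direction and side of the threshold, 36 lost it, 14 gained it and 22 turned sign. Depth limits Rpl3l, Rpl39l and Rps4l, whose ratios rest on few reads.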
